A study of Mus musculus with 6 samples.

Results

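The genes described here encode 10 enzymes of ceramide and sphingolipid metabolism in mouse beta-cells: *Degs1*, the enzymes before it in ceramide synthesis (*Sptlc1*, *Sptlc2*, *Kdsr*, *Cers2*, *Cers5* and *Cers6*) and enzymes that use ceramide (*Ugcg*, *Sgms1* and *Asah1*). They were taken by symbol from a table of 13535 genes, and all 10 were in it. The members were chosen by the normalized counts of *Degs1*, which were higher in pseudo-islets of these same samples, so its difference between the groups is given as a description without a test. The other 9 were added for their place in the pathway. Islet cells of 12-week-old male C57BL/6JRj mice (wild type) were sorted by surface markers (CD24, CD49f, CD71 and CD81), and alpha-, beta- and delta-cells together (pseudo-islets) or beta-cells only (pseudo-beta) were left to reaggregate in agarose molds for 5 days, in RPMI 1640 with serum and antibiotics. Beta-cells were then purified again by FACS, and their RNA was sequenced. There were 3 samples of each group, 1 of either kind from each of the experiments numbered 35, 36 and 37. The alpha- and delta-cells were absent together from pseudo-beta, so the effects of these cell types cannot be told apart. How many mice were pooled for an experiment is not given in the sources used here.

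Ceramide is built in the endoplasmic reticulum. Serine palmitoyltransferase, whose large subunits are SPTLC1 and SPTLC2, joins serine to palmitoyl-CoA, KDSR reduces the product to dihydrosphingosine, a ceramide synthase attaches a fatty acid to give dihydroceramide, and the desaturase DEGS1 turns dihydroceramide into ceramide. Ceramide is then carried on to glucosylceramide by UGCG or to sphingomyelin by SGMS1, or is split in lysosomes into sphingosine and a fatty acid by the acid ceramidase ASAH1. In beta-cells the pathway is best known for the ceramide that accumulates when cells are exposed to saturated fatty acids.

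The desaturase *Degs1* and the acid ceramidase *Asah1* were both more abundant in beta-cells from pseudo-islets than in those from pseudo-beta, while none of the other 8 enzymes was called in either direction. *Degs1* was 1.74-fold higher in pseudo-islets, the difference it was chosen for, and *Asah1* 1.42-fold higher (95% confidence interval 1.09 to 1.86), each in 3 of 3 experiments. The call of *Asah1* was made only when the experiment was a block of the fit. In bulk RNA, a change in the number of cells that carry a transcript and a change in its amount per cell cannot be told apart. The values are the normalized counts of the authors, compared as log2(value + 1) with limma and Benjamini-Hochberg adjustment over all genes, and a log2 fold change is that of pseudo-islets over pseudo-beta. Without the block, none of the 9 enzymes other than *Degs1* had an adjusted p under 0.05 in limma, against 0.0591% of all genes, and 1 (*Asah1*) had an unadjusted p under 0.05, against 5.4% of all genes. With the block, which sets each pseudo-islets sample against the pseudo-beta sample of its own experiment, 1 of the 9 was called, against 0.539% of all genes.

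The normalized counts summed to between 17994346 and 19635287 per library, and the number of reads is not given in the sources used here. The median standard error of a log2 fold change was 0.27 over all genes and 0.22 over the 10 enzymes. Defining beta-cell markers were abundant in every library, with *Ins2* between 5405330 and 5971280 normalized counts. *Gcg*, the glucagon gene of alpha-cells, was at 1763, 941 and 2094 normalized counts for pseudo-islets (experiments 35, 36 and 37) and at 36.1, 14.1 and 0 for pseudo-beta. *Sst*, the somatostatin gene of delta-cells, was at 190.2, 146 and 210.2 in pseudo-islets and at 0, 0 and 4.74 in pseudo-beta. Both hormone transcripts were higher in the sorted beta-cells of pseudo-islets and were called in limma with and without the block.

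*Degs1* (ENSMUSG00000038633) lies on the minus strand of chromosome 1 of GRCm38, from 182275772 to 182282804 (GENCODE M21, as for the other genes), and its longest coding transcript has 3 exons. Its levels were 14514, 14713 and 10717 normalized counts for the pseudo-islets of experiments 35, 36 and 37 and 8509.8, 7981 and 6377 for the matching pseudo-beta. The groups did not overlap, the lowest pseudo-islets sample being above the highest pseudo-beta sample. The mean was 13315 ± 2252 (SD, n = 3) with pseudo-islets and 7623 ± 1111 (SD, n = 3) with pseudo-beta. The log2 fold change was 0.80 ± 0.16 (SE). Within experiments 35, 36 and 37, the log2 differences were 0.77, 0.88 and 0.75, so most of the spread within each group lay between experiments and was shared by both samples of one experiment. With the experiment as a block the standard error was 0.07. Of the other 9 enzymes, which were not chosen for a difference, 0 had groups that did not overlap. This was the case for 10.8% of all genes, 5.63% being higher in pseudo-islets.

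The upstream sequence of *Degs1* is shown because this gene was picked for its higher level, and a canonical E-box, CACGTG, lies in it. Promoter windows of 300 bases, 250 before and 50 after a RefSeq start site, were searched on both strands for 4 motifs on GRCm38.p6, and 9 of the 10 genes had at least 1 window, 13 in all. *Asah1* had none. The E-box occurred in a window of *Degs1*, *Cers2* and *Cers6*, and in 7.15% of all 32851 windows (10.0% of the 12588 windows of genes in the table). The cAMP response element TGACGTCA occurred in none of the 13 windows and in 1.79% of all (3.23% for genes in the table), and its shorter form TGACG, which is part of it, in those of *Sptlc1*, *Sgms1* and *Cers6* and in 20.8% of all (31.5% for genes in the table). The sterol response element TCACNCCAC occurred in none of them and in 1.24% of all (1.09% for genes in the table). These are matches of letters only. The *Degs1* sequence runs 5′ to 3′ on the minus strand, from 250 to 31 bases before the RefSeq start, at chr1:182282226-182282445, within the gene as GENCODE M21 draws it and outside its exons. The E-box is in capitals, 43 to 38 bases before the start.
Degs1: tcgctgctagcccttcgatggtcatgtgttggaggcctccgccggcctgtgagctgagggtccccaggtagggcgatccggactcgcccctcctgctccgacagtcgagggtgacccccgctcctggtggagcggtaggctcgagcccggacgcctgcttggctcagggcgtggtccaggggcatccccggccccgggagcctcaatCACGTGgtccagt

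The E-boxes of the 3 genes are set side by side with 12 bases on either flank. Flanks of different genes differ in any case, so no conclusion is drawn from them. No difference was called for *Cers2* and *Cers6*. Whether the E-box has a part in the difference of *Degs1* was not tested. *Degs1* is read on the minus strand at chr1:182282221-182282250, *Cers2* on the plus strand at chr3:95315049-95315078 and *Cers6* on the plus strand at chr2:68861407-68861436. In GENCODE M21 the stretches of *Degs1* and *Cers2* lie within their genes, and that of *Cers6* lies outside its gene. Of the *Degs1* stretch, 4 bases are in its own exons.
Degs1: gggagcctcaatCACGTGgtccagtcagct
Cers2: cgccctgcggggCACGTGccacccgccccg
Cers6: cggccaggctgcCACGTGacaggcgaggcg

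The sphingolipid desaturase family has a second member, *Degs2*, which can also hydroxylate the dihydroceramide. *Degs2* reached 495, 795 and 468 normalized counts in pseudo-islets, while pseudo-beta had 329.9, 425 and 325, and its groups did not overlap. Its log2 fold change was 0.67 ± 0.24 (SE), which did not pass over all genes (adjusted p = 0.862 in limma, and 0.0953 with the block). *Degs1* had 18.5 to 29.3 times the normalized counts of *Degs2* in the 6 libraries, and the exons of both genes have nearly the same total length, 2591 and 2583 bases. The desaturases take electrons from cytochrome b5, which is kept reduced by cytochrome b5 reductases, and 5 of the 6 genes listed for this system were in the table. None of the 5 was called in limma with or without the block. *Cyb5b*, the outer mitochondrial membrane form of cytochrome b5, was higher in pseudo-islets in each experiment, with a log2 fold change of 0.24 ± 0.15 (SE, adjusted p = 0.976, and 0.244 with the block). *Cyb5a*, the other cytochrome b5 gene listed, had 0.04 ± 0.14 (SE, adjusted p = 0.998). Its log2 differences were -0.10, -0.02 and 0.24 in experiments 35, 36 and 37. *Cyb5r1*, a reductase, was lowest, and it was lower in pseudo-islets in each experiment (log2 differences -0.42, -0.36 and -0.39). Its log2 fold change was -0.39 ± 0.24 (SE, adjusted p = 0.973, and 0.429 with the block). *Cyb5r3*, the reductase of the endoplasmic reticulum and mitochondria, ran from 13280 to 14790.4 normalized counts in pseudo-islets and from 12062 to 16750.1 in pseudo-beta.

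*Asah1* (ENSMUSG00000031591), on the minus strand of chromosome 8 from 41340197 to 41374773, was the other member with a high level per length. It was at 10163, 12062 and 7504 normalized counts in pseudo-islets, as against 7603, 6949 and 6025 in pseudo-beta. The pseudo-islets sample of experiment 37 was just below the pseudo-beta sample of experiment 35, so the groups overlapped, but the pseudo-islets sample was the higher in each experiment. The mean was 9910.0 ± 2289 (SD, n = 3) with pseudo-islets and 6859 ± 793 (SD, n = 3) with pseudo-beta, which gave a log2 fold change of 0.51 ± 0.17 (SE) and an adjusted p = 0.851 in limma. With the experiment as a block the adjusted p was 0.0385, and over all alternatives it lay between 0.0256 and 1.00. It was called in the blocked fit also without experiment 37, but no longer without experiment 35 (adjusted p = 0.116) or without experiment 36 (adjusted p = 0.0971). The log2 fold change itself stayed between 0.36 and 0.70 when single libraries were left out.

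**Figure D1:**
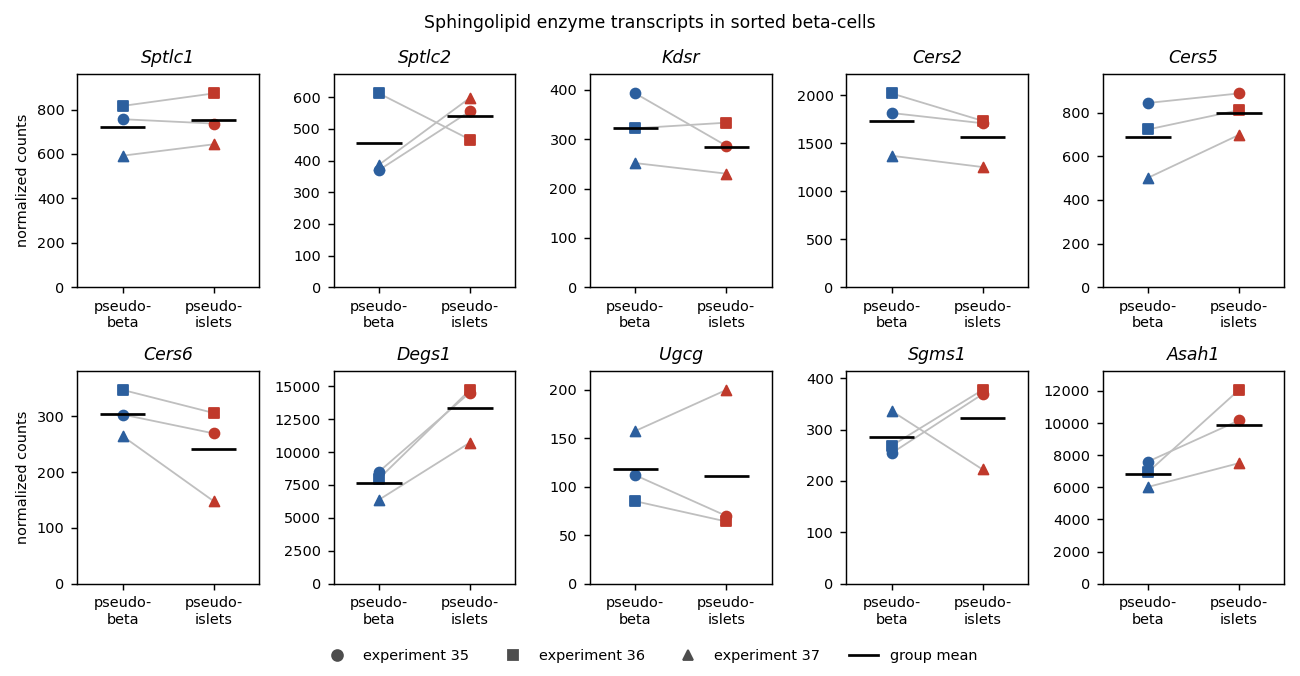
Normalized counts of the 10 enzymes (vertical axes, linear from 0) in pseudo-beta and pseudo-islets, 1 point per library, with lines joining the samples of one experiment and bars at the group means. *Degs1* was higher in each of the 3 pseudo-islets samples (10717 to 14713) than in any pseudo-beta sample (6377 to 8509.8), and for the other 9 genes the groups overlapped.

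No difference was called in the first steps of the pathway. *Sptlc1* (ENSMUSG00000021468), on the minus strand of chromosome 13 from 53332748 to 53377397, measured 737, 872 and 643 normalized counts in its pseudo-islets libraries against 756, 816 and 592 in those of pseudo-beta. Its log2 fold change of 0.06 had a 95% confidence interval of -0.36 to 0.48, within a 1.5-fold change in either direction (0.58 on the log2 scale). *Sptlc2* (ENSMUSG00000021036), the catalytic partner, on the minus strand of chromosome 12 from 87305058 to 87388355, reached 556, 466 and 598 normalized counts in pseudo-islets, while pseudo-beta had 370.0, 612 and 387. The sample of pseudo-beta in experiment 36 was the highest of all 6, so the sign of the difference turned in that experiment, at -0.39 against 0.59 and 0.63 in the others. The log2 fold change of 0.27 had an interval of -0.23 to 0.78. *Kdsr* (ENSMUSG00000009905), the reductase, on the minus strand of chromosome 1 from 106720459 to 106759727, was at 287, 333 and 230.2 normalized counts in pseudo-islets, as against 393, 322 and 252 in pseudo-beta, and the log2 fold change of -0.18 had an interval of -0.71 to 0.35. The adjusted p of these 3 genes was between 0.992 and 0.998 in limma.

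The ceramide synthases differ in the fatty acid they attach, CERS2 preferring very long chains and CERS5 and CERS6 shorter ones. *Cers2* (ENSMUSG00000015714), on the plus strand of chromosome 3 from 95314791 to 95323599, measured 1709, 1735 and 1253 normalized counts in its pseudo-islets libraries against 1816, 2020.3 and 1370.4 in those of pseudo-beta. It was slightly lower in pseudo-islets in each experiment, with a log2 fold change of -0.15 and an interval of -0.56 to 0.27, and its exons share 75 bases with *Setdb1* on the opposite strand, where reads cannot be told apart if the strand was not used in counting. *Cers6* (ENSMUSG00000027035), on the plus strand of chromosome 2 from 68861441 to 69114282, reached 269, 306 and 148 normalized counts in pseudo-islets, while pseudo-beta had 303, 347 and 264. It too was lower in pseudo-islets in 3 of 3 experiments, mostly in experiment 37 (log2 difference -0.83, against -0.17 and -0.18), and its log2 fold change of -0.39 had an interval of -1.03 to 0.24. *Cers5* (ENSMUSG00000023021), on the minus strand of chromosome 15 from 99734881 to 99772885, went the other way, with 888, 812 and 698 in pseudo-islets over 845, 723 and 502 in pseudo-beta. The log2 fold change of *Cers5* was 0.24 with an interval of -0.23 to 0.71. None of the 3 was called in limma (adjusted p from 0.990 to 0.998, and from 0.472 to 0.618 with the block).

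*Ugcg* (ENSMUSG00000028381), which makes glucosylceramide, lies on the plus strand of chromosome 4 from 59189257 to 59222833 and had the lowest level per length of the 10. It was at 70.0, 64.2 and 199.9 normalized counts in pseudo-islets, as against 112, 85.1 and 158 in pseudo-beta. The pair of experiment 37 was the highest in both groups, and the difference changed sign there, so that the log2 fold change of -0.24 had a wide interval, from -1.23 to 0.74. *Sgms1* (ENSMUSG00000040451), a sphingomyelin synthase of the Golgi, lies on the minus strand of chromosome 19 from 32122727 to 32389714. It measured 369, 377 and 222 normalized counts in its pseudo-islets libraries against 254, 269 and 336 in those of pseudo-beta, being higher in pseudo-islets in experiments 35 and 36 (log2 differences 0.54 and 0.49) and lower in experiment 37 (-0.59). Its log2 fold change was 0.14 with an interval of -0.42 to 0.70. Neither gene was called in limma, both with an adjusted p = 0.998.

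**Figure D2:**
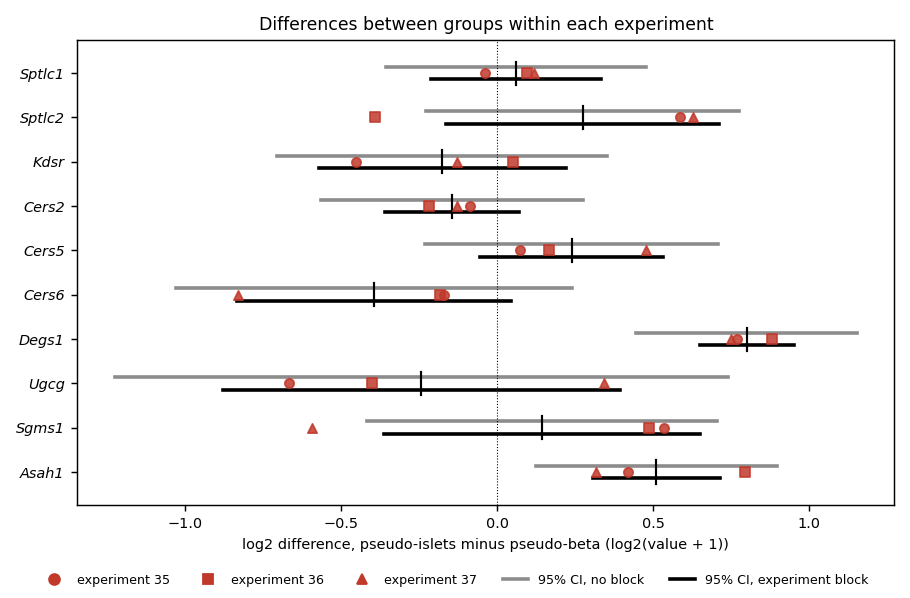
Log2 differences between pseudo-islets and pseudo-beta (horizontal axis, on the log2(value + 1) scale) for the 10 enzymes in pathway order, with 1 symbol per experiment, a tick at the fitted log2 fold change, and 95% confidence intervals of limma without (grey) and with (black) the experiment as a block. The 3 symbols of *Degs1* lie between 0.75 and 0.88, while those of *Sptlc2*, *Ugcg* and *Sgms1* fall on both sides of 0.

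Over the 10 genes the median log2 fold change was 0.10, and 6 were above and 4 below 0, beside a median of 0.01 over all genes. Without *Degs1* the median was 0.06, with 5 above and 4 below 0. Among the 9 enzymes other than *Degs1*, the difference had one sign in all 3 experiments for 4, beside 33.1% of all genes. *Asah1* and *Cers5* went upward and *Cers2* and *Cers6* downward. *Degs1*, which was chosen for its difference, was also upward in all 3 experiments. For 2 of the 10 the 95% confidence interval lay within a 1.5-fold change, and for 4 with the block, so a change of that size is not excluded by the intervals of the others. The libraries of experiment 37 were the lowest of their group, in both groups, for 7 of the 10 genes (*Degs1*, *Sptlc1*, *Kdsr*, *Cers2*, *Cers5*, *Cers6* and *Asah1*), which was so for 21.8% of all genes.

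Levels of different enzymes were compared per length, as normalized counts per kilobase of the union of a gene's exons in GENCODE M21. The order ran from *Degs1* at 4040.4 and *Asah1* at 2473 down to *Ugcg* at 22.0, as means of the 6 libraries per kilobase. The desaturase was above the acid ceramidase in 6 of 6 libraries, by 1.38 to 1.87 times. *Degs1* was the 121st and *Asah1* the 224th most abundant of 13526 genes by this measure. Between them and the ceramide synthases there was a gap, *Cers2* being at 449, and the ranges of *Asah1* and *Cers2* over the 6 libraries did not overlap. *Cers5* (210.2) and *Sptlc1* (207) could not be ordered, each being the higher in 3 of the 6 libraries. *Sptlc1* was above *Sptlc2* (61.4) in 6 of 6 libraries without overlap of their ranges. The last 5 genes, *Sptlc2*, *Kdsr* (37.2), *Cers6* (30.8), *Sgms1* (28.9) and *Ugcg*, had ranges that overlapped from one to the next, and *Sgms1* moved above *Sptlc2* (75.5 per kilobase) when the longest coding transcript was taken as the length. In levels per kilobase, *Degs1* made up 54.8% to 57.7% of the sum of the 10 genes in pseudo-islets and 48.4% to 49.4% in pseudo-beta, and *Asah1* 30.5% to 34.3% and 32.5% to 34.9%.

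**Figure D3:**
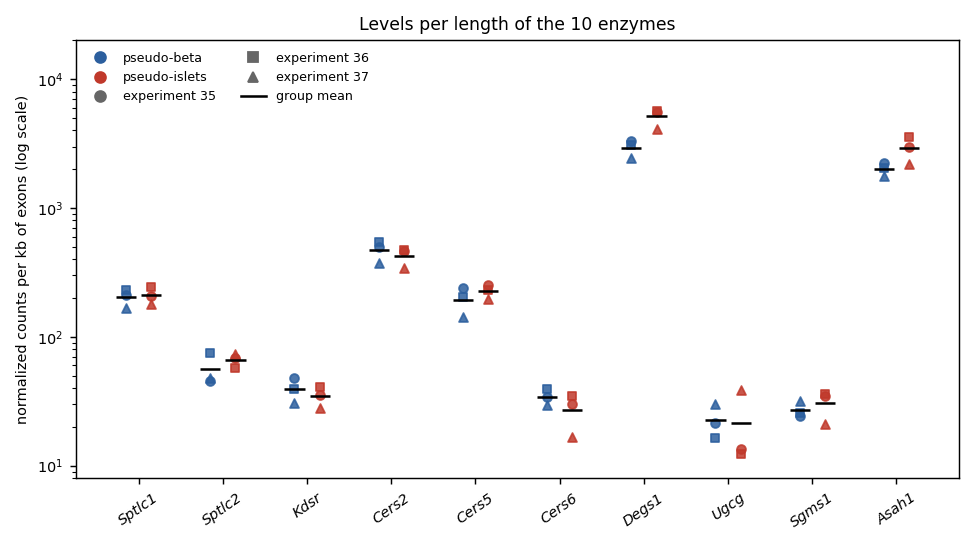
Levels of the 10 enzymes in pathway order, in normalized counts per kilobase of exons (vertical axis, log scale), 1 point per library with bars at the group means of pseudo-beta (blue) and pseudo-islets (red). *Degs1* and *Asah1* stand above the others, at means of 4040.4 and 2473 against 449 for the next, *Cers2*.

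Of the 4 ceramide synthase genes in the table, *Cers2* took 60.5% to 68.8% of their summed level per kilobase in the 6 libraries, *Cers5* 25.5% to 35.0%, *Cers6* 2.96% to 5.37% and *Cers4* 0.731% to 1.95%. *Cers5* took 33.3%, 30.7% and 35.0% in pseudo-islets, compared with 30.5%, 25.6% and 25.5% in pseudo-beta. The share was higher in pseudo-islets in each experiment. Its lowest value in pseudo-islets, 30.7%, was only just above its highest in pseudo-beta, 30.5%. The normalized counts of *Cers5* overlapped between the groups. The share of *Cers2* was lower in pseudo-islets in each experiment, with 61.7%, 63.1% and 60.5% against 63.2%, 68.8% and 67.2%. These shares are a description, and *Cers1* and *Cers3* were not analysed here.

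The rest of the pathway was described with 7 lists of 95 genes drawn up from its textbook scheme, of which 74 were in the table. In limma 0 of the 74 were called, without or with the block. An unadjusted p under 0.05 was found for 7 without the block, all higher in pseudo-islets, against 5.4% of all genes, and for 16 with it, also all higher, against 11.9% of all genes with the block, of which 905 were higher and 706 lower. The median log2 fold change of the 74 was 0.11, beside 0.01 over all genes, with 54 above and 20 below 0.

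Among 9 genes of the regulation and remainder of ceramide synthesis, the median log2 fold change was 0.09. *Rtn4*, which encodes the Nogo proteins of the endoplasmic reticulum, known to hold back serine palmitoyltransferase, reached 5301, 5113 and 5004 normalized counts in pseudo-islets, while pseudo-beta had 4071, 3638 and 4139. The groups did not overlap, and its log2 fold change was 0.38 ± 0.12 (SE), with an adjusted p = 0.737 in limma and 0.074 with the block. *Ormdl1*, *Ormdl2* and *Ormdl3*, whose products restrain the same enzyme, had log2 fold changes of 0.06, 0.15 and 0.07, and *Sptssa*, its small subunit, 0.16, all with an adjusted p of 0.998 in limma. Of those averaging 50 normalized counts or more, the lowest value was that of *Cers4*, at -0.11 ± 0.38 (SE), with log2 differences of -1.06, 1.02 and -0.29 in the 3 experiments. *Fam57b*, which shares the TLC domain of the ceramide synthases, averaged just below that level. It was at 34.3, 35.9 and 45.0 normalized counts in pseudo-islets, as against 51.2, 60.5 and 66.9 in pseudo-beta, so that the groups did not overlap, and its log2 fold change was -0.62 ± 0.35 (SE), with an adjusted p = 0.969 in limma and 0.542 with the block.

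Ceramide synthases draw on fatty acids that the elongation cycle lengthens, and 13 of its 15 listed genes were in the table. Their log2 fold changes had a median of 0.23, and 11 were above 0. In limma 0 of the 13 had an unadjusted p under 0.05 without the block, and 6 had one with it, against 11.9% of all genes. All 6 were higher in pseudo-islets. They were *Elovl2*, *Elovl5* and *Elovl6*, elongases of polyunsaturated and saturated fatty acids, *Hsd17b12* and *Hacd3*, enzymes of the later steps of the cycle, and *Dbi*, the acyl-CoA binding protein. *Elovl2* was at 1170.2, 1258 and 619 normalized counts in pseudo-islets, as against 739, 804 and 533 in pseudo-beta, with a log2 fold change of 0.51 ± 0.27 (SE) and an adjusted p = 0.967 in limma, and 0.159 with the block. Those of the other 5 ran from 0.19 for *Elovl5* to 0.48 for *Dbi*. *Hacd1*, at -0.44 ± 0.37 (SE), was the lowest of the list, with log2 differences of -1.47 in experiment 35 and 0.09 and 0.07 in the others.

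Breakdown genes were the largest list, with 21 of 22 in the table, a median log2 fold change of 0.20 and 17 above 0. An unadjusted p under 0.05 in limma was found for 4 without the block, against 5.4% of all genes, and for 6 with it, against 11.9%. The 6 were all higher in pseudo-islets, among them genes of lysosomal proteins and the neutral sphingomyelinase *Smpd2*. *Gla*, the alpha-galactosidase, measured 256, 212 and 265 normalized counts in its pseudo-islets libraries against 168, 116 and 135 in those of pseudo-beta. Its groups did not overlap, and its log2 fold change of 0.81 ± 0.24 (SE) was the highest of the list, with an adjusted p = 0.722 in limma and 0.154 with the block. *Hexa*, a hexosaminidase subunit, had a log2 fold change of 0.30, *Neu1*, the sialidase, 0.42, *Npc2*, a cholesterol carrier of lysosomes, 0.20, and *Smpd2* 0.39. *Psap*, the precursor of the saposins that assist these enzymes, at 31678 ± 5127 normalized counts (SD, n = 3) with pseudo-islets and 30272 ± 7778 (SD, n = 3) with pseudo-beta, had 0.09 ± 0.20 (SE). *Smpd4*, another neutral sphingomyelinase, was the lowest, at -0.52 ± 0.29 (SE), with an adjusted p = 0.969 in limma and 0.456 with the block. Its groups did not overlap, as was the case for 10.8% of all genes.

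In the 3 remaining lists, 1 gene (*Vapb*) had an unadjusted p under 0.05 in either fit of limma. Over all genes the share was 5.4% without the block and 11.9% with it. Of 9 genes of ceramide transport, phosphorylation and sphingomyelin synthesis, *Vapb*, an anchor of the ceramide transfer protein at the endoplasmic reticulum, had the highest log2 fold change at 0.33 ± 0.15 (SE, adjusted p = 0.919 in limma, and 0.173 with the block), and *Plekha8*, a glucosylceramide carrier, the lowest at -0.16. *Sgms2*, the sphingomyelin synthase of the plasma membrane, exceeded *Sgms1* per length, with 356 against 28.9 normalized counts per kilobase, or 382 against 75.5 with the longest coding transcript as the length. Its log2 fold change was 0.04. Among 10 glycosphingolipid genes, log2 fold changes ran from -0.17 (*St3gal3*) to 0.29 (*B3galt4*), and 0 had an unadjusted p under 0.05 in limma with or without the block. The 7 genes of sphingosine 1-phosphate had none either, and those averaging 50 normalized counts or more ran from *Sgpl1*, its lyase, at -0.01 to *Sgpp1*, its phosphatase, at 0.36 ± 0.44 (SE).

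**Figure D4:**
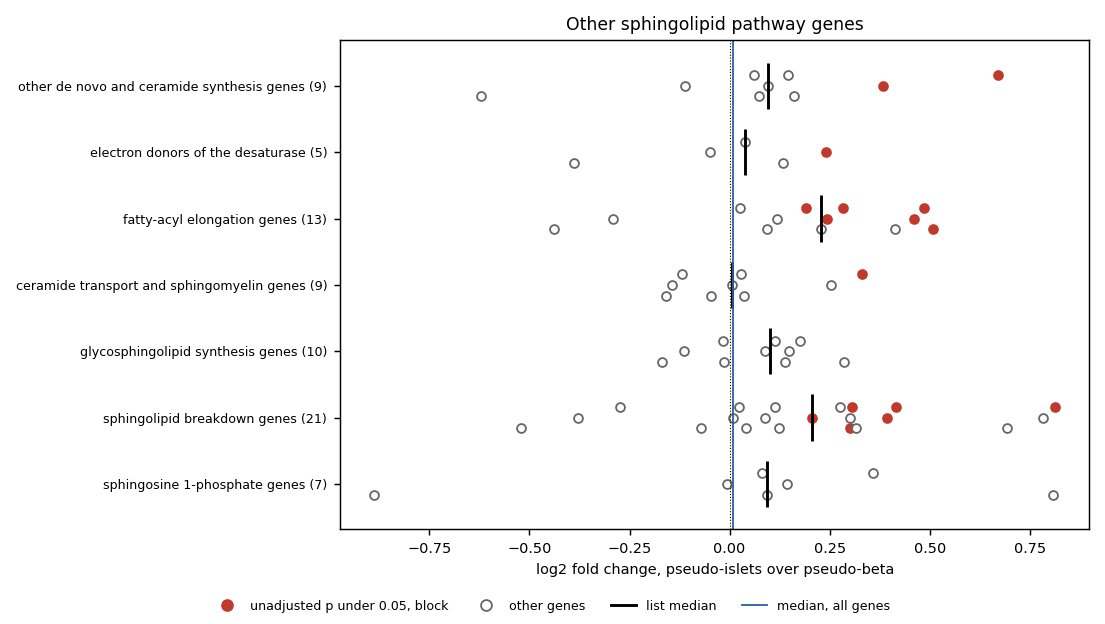
Log2 fold changes of pseudo-islets over pseudo-beta (horizontal axis) for the 74 other sphingolipid genes in 7 lists (number of genes in brackets), with filled points for an unadjusted p under 0.05 in limma with the block, black bars at list medians and a blue line at the median of all genes. All 16 filled points lie above 0, 6 of them among elongation genes and 6 among breakdown genes. Such a p was found for 11.9% of all genes.

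The profile of *Degs1* over the 6 libraries was compared with that of the 4447 other genes of at least 500 normalized counts on average. The 5 with the highest Pearson correlation of log2(value + 1) were *Cyp51* (0.991), a demethylase of sterol synthesis, *Adam9* (0.986), a membrane protease, *Tspan5* (0.985), a tetraspanin, *Atp6v1a* (0.983), a subunit of the proton pump of lysosomes and secretory granules, and *Wars* (0.982), the tryptophan tRNA synthetase. *Cyp51* reached 1421, 1538 and 1167 normalized counts in pseudo-islets, while pseudo-beta had 1012, 1012 and 871. Of the other 9 enzymes, *Asah1* was the most like *Degs1* at 0.945, followed by *Cers5* at 0.739, and *Ugcg* the least at -0.574. All these values come from 6 libraries that share the difference between the groups and the experiments, so the choice of the 5 genes fixes that they follow *Degs1* in both.

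Some markers of other islet and immune cells were also higher in the sorted beta-cells of pseudo-islets, as *Degs1* and *Asah1* were. The summed level of 8 of 12 alpha-cell markers ran from 8441 to 12382 normalized counts in pseudo-islets and from 5415 to 6633 in pseudo-beta. For 5 of 8 delta-cell markers, which include *Pdx1* of beta-cells, the ranges were 7068 to 9244 and 6334 to 9371, and for 2 of 4 PP-cell markers 658 to 5500.2 and 328 to 2482. Both PP-cell markers, the hormone genes *Ppy* and *Pyy*, were higher in pseudo-islets in 3 of 3 experiments and were called with the block (adjusted p = 0.00267 and 0.0259 in limma), as were the alpha-cell markers *Ttr* (adjusted p = 0.0303) and *Etv1* (adjusted p = 0.0319). For 3 of 10 immune markers they were 1804 to 2870.1 and 1237 to 1843, chiefly *C1qa*, a complement gene of macrophages, at 2318, 2661 and 1649 in pseudo-islets, compared with 977, 1412 and 983 in pseudo-beta, and called with the block (adjusted p = 0.00305 in limma). *Cd68*, another macrophage marker, was between 3.74 and 18.6 in the 6 libraries, and the B-cell marker *Cd79a* was lower in pseudo-islets (adjusted p = 0.0385 with the block). In the 3 experiments *Degs1* differed between the groups by 6004, 6732 and 4340.1 normalized counts, *Asah1* by 2561, 5113 and 1479, *Gcg* by 1727, 927 and 2094, *Ppy* by 2522, 164 and 1059.5 and *C1qa* by 1341, 1249 and 666. The part of other cells in the differences of *Degs1* and *Asah1* was not tested. The 1 endothelial marker in the table was low in both groups, at 41.4 to 89.5 normalized counts. None of the 12 acinar and 8 stromal markers looked up was in the table, so they have no values here.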

How the data were processed

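RNA of sorted beta-cells was sequenced in 6 libraries. Per the labels and the study's methods, the authors made libraries with the Ovation solo kit, aligned reads to GRCm38 with STAR 2.7.6a, quantified genes with RSEM 1.3.1 and normalized them with DESeq2 1.26.0. The deposited signal is normalized counts per gene, not whole reads. The annotation release, a filter on low genes and the use of strand are not given in the sources used here. The deposited columns with the authors' own fold changes and p-values were not used.

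Values were compared as log2(value + 1) with limma 3.58.1 in R 4.3.3, with trend = TRUE in the empirical Bayes step, and p-values of 13535 genes were adjusted together by Benjamini-Hochberg. Calls were made below an adjusted p of 0.05. The fit was tested on simulated data. The correlation of deviations from group means was 0.119, 0.121 and 0.325 for pairs sharing an experiment number and -0.203 to 0.0922 for other pairs. All 3 exceeded the minimum of 0.1, so the numbers were taken to pair samples. Results of a fit with this replicate block are printed where a call changes, and also for some genes whose call does not change. Normalized counts summed to 17994346 to 19635287 per library, and the spread of 3 samples a group sets the precision. Per the labels and the study's methods, the 3 samples of a group are independent biological samples from separate experiments.

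The members, gene lists and motifs were chosen with earlier results of these data known. Outside the 10 enzymes, genes are named when their unadjusted p was under 0.05 in either fit, when they were highest or lowest of their list and averaged 50 normalized counts or more, or when they were the 5 most like *Degs1*. *Cyb5a*, *Cyb5r3*, *Ormdl1* to *Ormdl3*, *Sptssa*, *Sgms2*, *Psap*, *Fam57b* and the cell type markers are named outside that rule, after their values were seen. GENCODE M21 gave lengths for 13526 of the genes, and promoter sequences are from RefSeq on GRCm38.p6. Motifs were matched on both strands. The value of 1 gene of the breakdown list is not reported here.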

Additional observations from a re-analysis of the deposited data

How the results depend on the processing

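The log2 fold changes of the 10 enzymes were computed again under 17 alternatives. *Degs1* ranged from 0.68 to 0.95 without single libraries and from 0.76 to 0.83 with the block and 1 experiment left out, and *Asah1* from 0.36 to 0.70 and from 0.37 to 0.61. Signs turned for *Sptlc1* (-0.055 without the pseudo-islets of experiment 36, and -0.077 when the pseudo-beta of experiment 37 was left out, range -0.077 to 0.16), *Ugcg* (0.048 without the pseudo-islets of experiment 36, range -0.76 to 0.048), *Cers2* (0.0074 without the pseudo-islets of experiment 37, range -0.31 to 0.0074) and *Sgms1* with the block (-0.053 without experiment 35 and -0.029 without experiment 36, range -0.053 to 0.51). With the replicate block the enzymes called went from 0 to 2, and to 1 to 2 without single experiments, but these counts include *Degs1*, which was chosen for its difference. Leaving it out they were 1, and 0, 0 and 1 without experiments 35, 36 and 37. It changed no call among the 74 other sphingolipid genes, of which 0 passed in limma under each alternative, with 3 to 16 at an unadjusted p under 0.05. Over all genes, 8 were called, 73 with the replicate block and 28, 73 and 45 with that block and without experiments 35, 36 and 37, 0 to 13 without single libraries (501 to 918 at an unadjusted p under 0.05), 1 with a pseudocount of 0.1, and 2 each with scaling without the 10 most abundant genes, quantile normalization or no trend. Enzymes whose groups do not overlap numbered 1, and 1 to 4 without single libraries, the 4 arising without the pseudo-islets of experiment 37, and 2 without any 1 pseudo-beta library. These counts include *Degs1*, which was chosen for its difference. With 1 library fewer, groups separate more easily for any gene, and the share of all genes was not computed for these alternatives. The higher counts are therefore no result about the enzymes. The median of the 10 enzymes stayed between 0.01 and 0.18. With the longest coding transcript as the length, *Degs1* was 1.69 times *Asah1* per kilobase, beside 1.63.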
